A study of Mus musculus with 6 samples.

Results

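The Hox genes were defined as all probes whose gene name is Hoxa, Hoxb, Hoxc or Hoxd followed by a number. This gave 39 genes with 45 probes, of 34650 gene names and 55681 probes on the array. Of these, 11 genes (15 probes) belong to the Hoxa cluster on chromosome 6, 10 genes (11 probes) to Hoxb on chromosome 11, 9 genes (9 probes) to Hoxc on chromosome 15 and 9 genes (10 probes) to Hoxd on chromosome 2. Membership was set by name alone and used no measured value, though earlier results of these data were known when the set was chosen. RNA of mouse embryonic stem (ES) cells was hybridised to 6 one-colour Agilent arrays. The 3 TKO dishes held cells in which Tet1, Tet2 and Tet3, the enzymes that oxidise 5-methylcytosine, were knocked out. They were derived from BJ FF2 ES cells, the wild-type line of the 3 WT dishes. Per the labels, the 6 dishes were cultured in parallel, in 2i conditions on inactivated mouse embryonic feeder cells, and were moved to matrigel without feeders before collection. The comparison asks how transcription differs between cells without and with the Tet enzymes. Each dish gave 1 array, so that p-values measure only the spread between dishes of 1 TKO derivation and 1 WT line. Which parts of the 3 genes were altered, and whether the TKO cells are 1 clone, the labels leave unsaid.

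Hox genes encode homeodomain transcription factors that give cells along the body axis their positional identity. They lie in ordered clusters, and paralog numbers run from the anterior, early acting genes (number 1) to the posterior, late acting genes (number 13). In ES cells most Hox promoters are held at low transcription by Polycomb complexes, while Trithorax-family complexes keep them able to respond. Tet1 binds many CpG-rich promoters in ES cells, including Polycomb targets. Retinoic acid and Cdx factors switch Hox genes on during differentiation, and the proteins bind DNA together with TALE cofactors of the Pbx and Meis families.

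Promoters of 4 members that carry the contrast described below are given to show the CpG content of the sequences that the Tet enzymes could act on. Hoxa7, Hoxc4 and Hoxd13 were lower in TKO dishes, and Hoxb4 was called higher. Each runs 5′ to 3′ from 250 bases before to 50 bases after the annotated start (RefSeq, build GRCm38.p6), and CpG dinucleotides are in capitals.
Hoxa7 (chr6:52218524-52218823, minus strand): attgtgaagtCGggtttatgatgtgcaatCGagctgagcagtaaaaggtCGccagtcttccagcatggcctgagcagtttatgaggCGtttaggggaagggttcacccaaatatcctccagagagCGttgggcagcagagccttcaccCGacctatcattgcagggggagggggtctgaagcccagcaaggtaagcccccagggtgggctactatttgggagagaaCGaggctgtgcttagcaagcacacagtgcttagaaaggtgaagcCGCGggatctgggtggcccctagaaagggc
Hoxc4 (chr15:103034145-103034444, plus strand): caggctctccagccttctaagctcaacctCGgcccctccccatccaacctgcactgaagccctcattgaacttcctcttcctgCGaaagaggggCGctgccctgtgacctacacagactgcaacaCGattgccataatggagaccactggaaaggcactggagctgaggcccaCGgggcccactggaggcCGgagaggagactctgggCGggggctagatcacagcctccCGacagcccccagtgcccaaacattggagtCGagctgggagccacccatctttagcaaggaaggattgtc
Hoxd13 (chr2:74667975-74668274, plus strand): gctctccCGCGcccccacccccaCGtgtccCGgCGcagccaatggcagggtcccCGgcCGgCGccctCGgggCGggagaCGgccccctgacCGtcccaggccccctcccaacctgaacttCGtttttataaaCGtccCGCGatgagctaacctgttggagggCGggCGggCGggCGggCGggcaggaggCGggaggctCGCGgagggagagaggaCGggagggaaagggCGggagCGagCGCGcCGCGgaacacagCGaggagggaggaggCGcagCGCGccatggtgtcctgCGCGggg
Hoxb4 (chr11:96318017-96318316, plus strand): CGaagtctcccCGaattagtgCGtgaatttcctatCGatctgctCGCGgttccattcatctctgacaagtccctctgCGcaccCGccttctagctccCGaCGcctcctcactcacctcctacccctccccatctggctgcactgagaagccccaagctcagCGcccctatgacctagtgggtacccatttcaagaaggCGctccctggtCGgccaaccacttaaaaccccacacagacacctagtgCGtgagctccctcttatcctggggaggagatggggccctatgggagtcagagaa
They hold 9, 9, 37 and 14 CpG dinucleotides. The RefSeq promoter table had 24 promoters for 22 of the 39 Hox genes, with a median of 14.5 CpG (4 to 45), against a median of 7 over all 32851 promoters in the table. Among the tested genes with a promoter there, the 6 genes lower in TKO ranged from 4 to 37 CpG and the 3 without a call from 4 to 29. The motif TGATNNAT, a joint Hox and Pbx recognition sequence searched on both strands, was present in 4 of 24 Hox promoters (16.7%) and in 8.85% of all promoters. A TATAAA motif, searched on the gene's strand, was present in 1 of 24 (Hoxd13, 4.17%) and in 8.32% of all. No methylation was measured in these samples.

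Values are log2 signals relative to each array's 75th percentile, and differences are TKO minus WT. A gene was tested, by the brightest probe that passed, if at least 3 of the 6 arrays measured a probe well above background, which held for 21562 gene names, and was called at an adjusted p under 0.05 (limma, Benjamini-Hochberg over all tested genes). The brightest Tet1 and Tet2 probes were lower in TKO dishes, by -1.37 and -2.93 (adjusted p = 1.02e-05 and 2.99e-06 over all probes, limma), and the brightest Tet3 probe differed by -0.24 (adjusted p = 0.0904). All 6 arrays lay on 1 slide. TKO replicate 1 shared array row 1 with the 3 WT arrays, and TKO replicates 2 and 3 lay in row 2. The lowest signal well above background was -4.77 and -4.36 on the row 2 arrays, against -5.21 for TKO replicate 1 and -5.87, -5.31 and -4.97 for WT replicates 1 to 3. The part of the array row in results on dim probes was not tested beyond the values of row 1 alone that are given with them. Row 1 alone sets 1 TKO dish against 3 WT dishes, without a spread among TKO dishes. With the row as a block, the difference rests on the same arrays.

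Among the Hox transcripts that could be measured, calls between TKO and WT dishes ran mostly downward. Of 23 tested Hox genes, 12 were called lower, 3 higher and 8 were not called. Over all tested genes 29.7% were called lower and 30.0% higher, 59.7% in all, so that the plain call is common in these arrays. The 15 Hox genes called in either direction, of 23 tested, were near that share. With a fitted size of at least 2-fold in addition, 10 Hox genes were lower and 0 were higher, against 6.25% and 7.41% of all tested genes. Among them were Hoxa3, Hoxa7, Hoxb7, Hoxc4, Hoxc10, Hoxc11, Hoxc12, Hoxc13 and Hoxd13. For Hoxc10 and Hoxc12 the TKO signals allow only bounds under 2-fold, which leaves 8 genes. Under normexp background correction, a model fitted to the mean and background signals with an offset of 50, 4 genes were lower at least 2-fold. The offset is added to every signal, so that log2 differences of dim probes shrink by construction. All 3 TKO values lay under all 3 WT values for 15 Hox genes, and over them for 3, where the background shares were 34.1% and 33.5%. The median difference was -0.48 over the tested Hox genes and -0.01 over all tested genes. Fitted over all 30734 kept probes, of which 57.1% were called, the 23 kept Hox probes likewise gave 12 lower and 3 higher. Of the 23 genes, Hoxc10, Hoxc11 and Hoxc12 entered the test through the WT arrays alone, which favours a lower call. Of all 560 genes kept through 1 group alone, 483 were called. Without Hoxc10, Hoxc11 and Hoxc12, 9 of 20 Hox genes were lower and 3 higher (median difference -0.38), against 29.1% and 29.8% of the genes measured on at least 1 array of each group. Of these 20, 7 were lower at least 2-fold. All TKO values lay under all WT values for 12 and over them for 3. Among the 21002 genes measured on at least 1 array of each group, these 3 numbers were 1100, 7043 and 7024. Hoxa3, Hoxa9, Hoxd8 and Hoxd13, all called lower, also needed WT arrays to pass, since fewer than 3 TKO arrays measured them. The same held for Hoxc5 and Hoxd1, which were not called. Among the 14 Hox genes well above background on all 6 arrays, 5 were lower, all at least 2-fold, 3 were higher and the median difference was -0.17. Of all 18939 genes well above background on all 6 arrays, 5715 were lower, 901 of them at least 2-fold, and 5985 were higher.

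**Figure D1:**
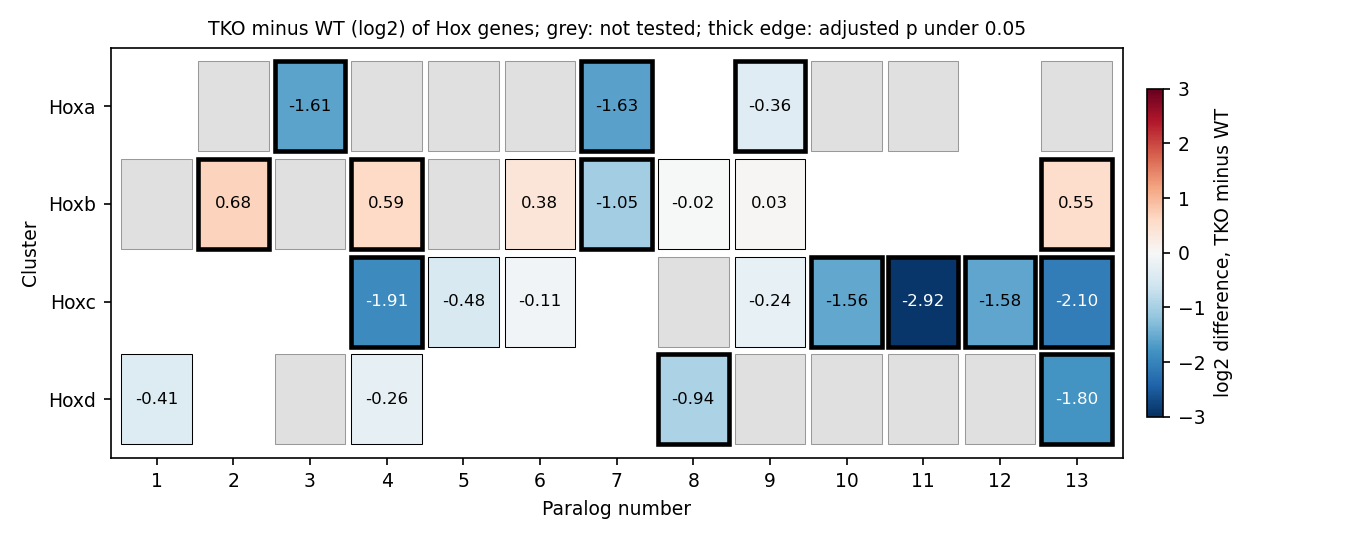
Differences (TKO minus WT, log2) of Hox genes, with clusters in rows and paralog numbers in columns. Numbers and colour give the difference of tested genes, thick edges mark called genes, grey squares are the 16 genes not tested, and blank places hold no gene or a gene not reported here. All tested squares of the Hoxa, Hoxc and Hoxd rows are negative (blue), and the 3 called rises, 0.55 to 0.68, stand in the Hoxb row. The TKO values of Hoxc10, Hoxc11 and Hoxc12 were not well above background.

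The number of Hox probes well above background was 22, 16 and 14 of 45 on the 3 TKO arrays, against 25, 26 and 25 on the 3 WT arrays. Over all probes on the array the shares were 56.7%, 50.9% and 51.2% on TKO arrays, against 55.1%, 57.6% and 53.9% on WT arrays. TKO arrays therefore measured fewer Hox probes, and the 2 arrays of row 2 also measured fewer probes in general. By cluster, Hoxc had 5, 4 and 4 of 9 probes detected on TKO arrays and 8 on each WT array. Hoxd had 4, 2 and 1 of 10 on TKO arrays and 5 on each WT array. Hoxa had 4, 3 and 2 of 15 on TKO arrays, against 4, 6 and 5 on WT arrays, so that these groups met at 4. Hoxb had 9, 7 and 7 of 11 on TKO arrays, against 8, 7 and 7 on WT arrays. By gene, 14 Hox genes were measured on all 3 TKO arrays and 23 on all 3 WT arrays. On WT arrays alone 7 genes were measured, and on a TKO array alone 1 gene, Hoxb5.

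**Figure D2:**
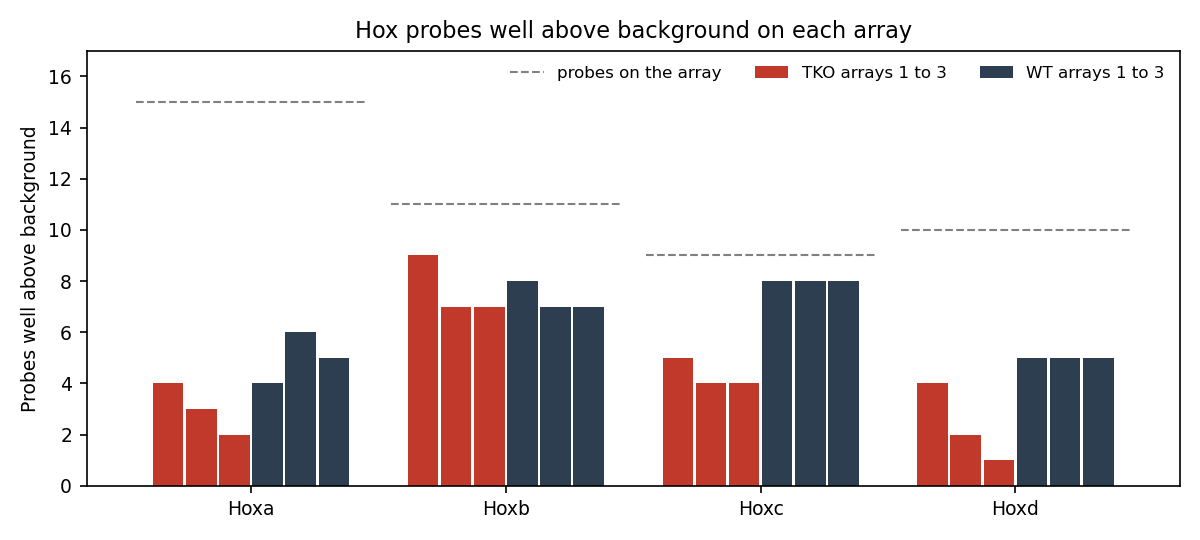
Number of Hox probes well above background on each array, by cluster, with TKO arrays 1 to 3 (red) left of WT arrays 1 to 3 (dark) and dashed lines at the number of probes on the array. Hoxc shows 4 to 5 probes on TKO arrays and 8 on WT arrays, and Hoxb shows 7 to 9 and 7 to 8.

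In the Hoxa cluster all 4 tested genes were lower in TKO dishes, with a median difference of -1.60 against -0.03 over the tested genes of chromosome 6, of which 29.9% were called lower and 28.2% higher. Hoxa7, a gene of the thoracic region, is probed at 52165626 to 52165685 of chromosome 6 (build mm9, as all probe positions here). It read -2.45, -1.98 and -2.12 on TKO arrays and -0.59, -0.61 and -0.45 on WT arrays. It was 3.10-fold lower (-1.63 ± 0.131 SE, n = 3 dishes per group; adjusted p = 0.000169, limma), without overlap between the groups. Hoxa3, which acts in pharyngeal arch and thymus development (52119087 to 52119146), read -4.59, -5.12 and -4.30 on TKO arrays, of which 1 was well above background. Its WT values were -3.08, -2.89 and -3.21, and the difference was -1.61 ± 0.218 (SE, adjusted p = 0.00143, limma), or -0.47 under normexp (adjusted p = 7.54e-05). Hoxa9, a regulator of blood progenitors and of the posterior axis (52174165 to 52174224), differed least, by -0.36 ± 0.111 (SE, adjusted p = 0.0342, limma). It was measured on 2 TKO arrays and 3 WT arrays and was at -0.16 under normexp (adjusted p = 0.0234). Its call was lost in 7 of 19 alternatives, without TKO replicate 1 or 3 (-0.31 each), without WT replicate 2 (-0.28) or 3 (-0.38), in array row 1 alone (-0.46, 1 TKO dish), with the row as a block (adjusted p = 0.0748) and with no filter on dim probes (adjusted p = 0.0741).

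In Hoxc, 8 genes were tested, of which Hoxc10, Hoxc11 and Hoxc12 entered through the WT arrays alone. Of the other 5, Hoxc4 and Hoxc13 were lower, 3 were not called and 0 were higher. Their median difference was -0.48, against -0.01 over the genes of chromosome 15 measured on at least 1 array of each group, of which 30.0% were called lower and 27.9% higher. Hoxc4, a gene of the cervical region probed at 102867213 to 102867272 of chromosome 15, read -1.62, -1.90 and -1.78 on TKO arrays and 0.07, 0.14 and 0.21 on WT arrays. The groups lay far apart and the gene was 3.75-fold lower (-1.91 ± 0.0838 SE, adjusted p = 1.96e-05, limma).

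The posterior genes Hoxc10, Hoxc11 and Hoxc12, which pattern the lumbosacral region and hind limb, were well above background on 3 WT arrays and on 0 TKO arrays. Hoxc10 (102801857 to 102801916) read -6.28, -5.52 and -5.38 on TKO arrays and -4.61, -3.94 and -3.94 on WT arrays. Hoxc11 (102787022 to 102787081) read -7.16, -6.24 and -6.39 on TKO arrays and -3.55, -3.64 and -3.84 on WT arrays. Hoxc12 (102768889 to 102768948) read -5.19, -6.12 and -5.20 on TKO arrays and -3.98, -3.92 and -3.86 on WT arrays. The groups did not overlap for any of the 3, and because the TKO signals were not well above background only a bound can be given. Hoxc10 was at least 1.53-fold, Hoxc11 at least 2.15-fold and Hoxc12 at least 1.81-fold lower. The fit gave adjusted p = 0.0063, 0.000241 and 0.00342 (limma), which support nothing beyond the bounds, since the 3 genes entered the test by being high in WT dishes. Each bound sets the WT mean against the TKO mean of, per array, the higher of the probe's signal and the lowest signal well above background. Under normexp the differences were -0.31, -0.61 and -0.37, or 1.24-, 1.53- and 1.29-fold, smaller than these bounds, which hold for the main scale alone.

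Hoxc13, a posterior gene required for hair and nail keratinisation (102759058 to 102759117), was measured on all 6 arrays and spread widely among TKO dishes. It read -3.12, -1.39 and -3.59 on TKO arrays and -0.60, -0.60 and -0.62 on WT arrays. TKO replicate 2 lay nearest to the WT values, and all 3 TKO values were below them. The difference was -2.10 ± 0.566 (SE, adjusted p = 0.0217, limma). It was -2.75 without TKO replicate 2 (adjusted p = 0.000208) and -1.65 without TKO replicate 3, and the call was lost without TKO replicate 1 (-1.88, adjusted p = 0.0684) or any 1 WT replicate (-2.10 to -2.09, adjusted p = 0.0603 to 0.0618) and with the array row as a block (-2.52, adjusted p = 0.0668). Under normexp the difference was -1.25 (adjusted p = 0.00327). The tested genes of the middle of the cluster were not called. Hoxc6 read -0.96, -0.83 and -0.89 on TKO arrays and -0.79, -0.75 and -0.82 on WT arrays, a difference of -0.11 ± 0.0488 (SE, adjusted p = 0.115, limma). It was called in 2 of 20 alternatives, at -0.17 after quantile normalization and -0.31 after median centring (adjusted p = 0.0143 and 0.00438). Hoxc9 differed by -0.24 ± 0.0862 (SE, adjusted p = 0.0543, limma), a value close to the threshold that was called in 8 of 20 alternative settings. Hoxc5, measured on 1 TKO array and 3 WT arrays, differed by -0.48 ± 0.329 (SE, adjusted p = 0.26, limma). For Hoxc6 and Hoxc9 all TKO values were under all WT values, and for Hoxc5 the groups overlapped.

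In Hoxd, 2 of 4 tested genes were lower and 2 were not called, with a median difference of -0.67, against 0.00 over the tested genes of chromosome 2, of which 25.6% were called lower and 29.0% higher. Hoxd13, the most posterior gene of the cluster and a regulator of digit formation, is probed at 74509248 to 74509307 of chromosome 2. It read -4.10, -4.06 and -4.39 on TKO arrays, of which 2 were well above background, and -2.38, -2.47 and -2.32 on WT arrays. The groups were well separated, and the gene was 3.47-fold lower (-1.80 ± 0.0991 SE, adjusted p = 4.27e-05, limma), or 1.74-fold under normexp (-0.80, adjusted p = 2.51e-06). Hoxd8 (74545171 to 74545230) read -4.53, -4.46 and -4.60 on TKO arrays, of which 1 was well above background, and -3.48, -3.52 and -3.77 on WT arrays. Its difference was -0.94 ± 0.0887 (SE, adjusted p = 0.000321, limma), with no overlap between groups, and -0.25 under normexp (adjusted p = 0.00667). The anterior gene Hoxd1 (1 TKO and 3 WT arrays measured) differed by -0.41 ± 0.152 (SE, adjusted p = 0.0633, limma). It was called in 6 of 19 alternatives, among them at -0.57 without WT replicate 1 (adjusted p = 0.005), at -0.58 with each array's chromosome median subtracted (adjusted p = 0.0175) and at -0.15 under normexp (adjusted p = 0.0142). Hoxd4, measured on all arrays, differed by -0.26 ± 0.245 (SE, adjusted p = 0.395, limma), and by -0.54 without TKO replicate 1, where it was called (adjusted p = 0.0104).

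Calls in the Hoxb cluster ran both ways. Of 7 tested genes 3 were higher, 1 was lower and 3 were not called, against 0 higher and 8 lower of 13 tested in the other clusters without Hoxc10 to Hoxc12. No test compared the clusters, and calls on chromosome 11 leaned upward in general. The median difference was 0.38 over Hoxb and 0.34 over the 1616 tested genes of chromosome 11, of which 57.5% were called higher and 13.9% lower. Hoxb2, expressed in hindbrain rhombomeres (96215122 to 96215181 of chromosome 11), read -3.96, -3.65 and -3.57 on TKO arrays and -4.45, -4.23 and -4.54 on WT arrays. Hoxb4, which acts in blood stem cell expansion (96182885 to 96182944), read -2.23, -2.31 and -2.34 on TKO arrays and -2.75, -2.97 and -2.94 on WT arrays. Hoxb13, the posterior gene known from prostate and tail development (96057854 to 96057913), read -0.17, -0.38 and -0.38 on TKO arrays and -0.84, -0.90 and -0.82 on WT arrays. For all 3 genes every TKO value was above every WT value. The differences were 0.68 ± 0.133, 0.59 ± 0.0726 and 0.55 ± 0.0704 (SE, adjusted p = 0.00635, 0.000945 and 0.00116, limma), or 1.60-, 1.51- and 1.46-fold.

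These rises were smaller when set against the chromosome. With the median gene difference of chromosome 11 subtracted, an alternative chosen after seeing the data, Hoxb2 was at 0.34 (adjusted p = 0.0754), Hoxb4 at 0.25 (adjusted p = 0.0291) and Hoxb13 at 0.20 (adjusted p = 0.0518), all limma. With each array's chromosome median subtracted instead, they were at 0.24, 0.15 and 0.11 (adjusted p = 0.179, 0.117 and 0.227), and none was called. Hoxb2 also lost its call in array row 1 alone (0.44, 1 TKO dish), with the row as a block (0.44, adjusted p = 0.0528) and under normexp background correction (0.12, adjusted p = 0.0804). Hoxb4 and Hoxb13 were at 0.24 and 0.40 under normexp and were still called (adjusted p = 0.00404 and 0.000403). Hoxb7 went the other way. This thoracic gene (96151211 to 96151270) read -2.88, -2.86 and -2.86 on TKO arrays and -1.88, -1.89 and -1.69 on WT arrays, a 2.06-fold lower signal (-1.05 ± 0.0647 SE, adjusted p = 6.42e-05, limma), or -0.57 under normexp (adjusted p = 3.62e-05). Relative to the median gene difference of its chromosome it was at -1.39 (adjusted p = 2.51e-05).

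The remaining Hoxb genes were not called. Hoxb6 differed by 0.38 ± 0.182 (SE, adjusted p = 0.123, limma), and by 0.54 without WT replicate 2, where it was called (adjusted p = 0.0391). Hoxb8 differed by -0.02 ± 0.106 and Hoxb9 by 0.03 ± 0.114 (SE, adjusted p = 0.903 and 0.841, limma), and the groups overlapped for all 3 genes. With each array's chromosome median subtracted, Hoxb8 was at -0.46 and Hoxb9 at -0.41, both called lower (adjusted p = 0.0111 and 0.0233).

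**Figure D3:**
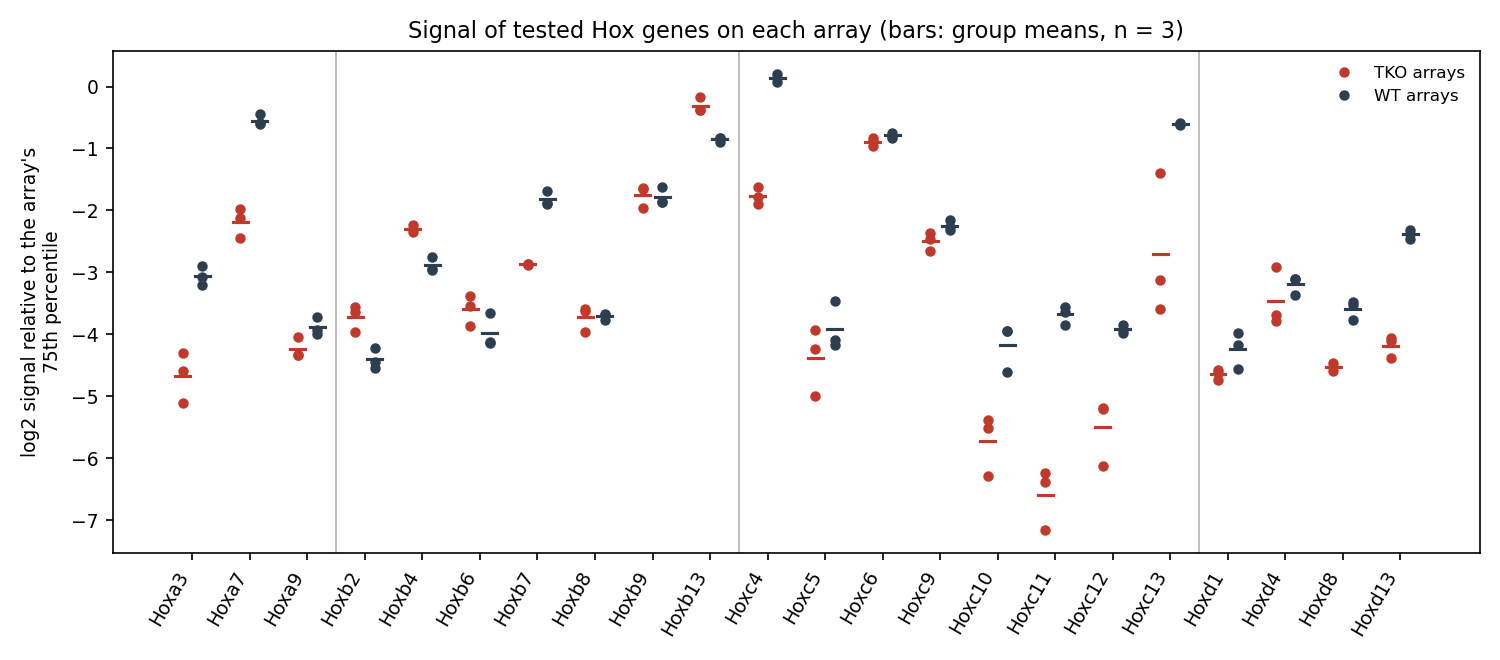
Signal of the tested Hox genes reported here on each array (log2 relative to the array's 75th percentile), in order of cluster and paralog number, with TKO arrays in red left of WT arrays in dark and bars at the group means. The groups lie far apart for Hoxa7, Hoxc4, Hoxc11 and Hoxd13, and the TKO values of Hoxc13 run from -3.59 to -1.39. Dim values of Hoxc10 to Hoxc12 on TKO arrays are bounds only.

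By paralog number, lower calls occurred in all 3 classes. Over all tested genes 29.7% were called lower and 30.0% higher, so that calls in both directions are common in any class. Of the 4 tested genes of groups 1 to 3, 2 were lower and 1 higher (median difference -0.998). Of the 10 tested genes of groups 4 to 8, 4 were lower and 1 higher (median -0.37). Of the 6 tested genes of groups 9 to 13 other than Hoxc10 to Hoxc12, 3 were lower and 1 higher (median -0.30). In each class the higher gene was a Hoxb gene. On the main scale, paralogs of groups 4 and 13 were called in opposite directions between clusters. With each array's chromosome median subtracted, Hoxb4 and Hoxb13 were at 0.15 and 0.11 and were not called (adjusted p = 0.117 and 0.227, limma). In group 4, Hoxb4 was at 0.59 and Hoxc4 at -1.91, while Hoxd4 was not called. In group 13, Hoxb13 was at 0.55 while Hoxc13 and Hoxd13 were at -2.10 and -1.80. In group 7, Hoxa7 and Hoxb7 were both lower, at -1.63 and -1.05. In group 9, Hoxa9 was called lower, and Hoxb9 and Hoxc9 were not called. These values come from separate probes of separate genes, and the differences between paralogs were not tested.

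The other 16 Hox genes (19 probes) were not tested. Of these, 10 genes were well above background on 0 arrays: Hoxa2, Hoxa4, Hoxa5, Hoxa6, Hoxa10, Hoxb1, Hoxc8, Hoxd3, Hoxd10 and Hoxd12. Hoxb1, the first gene of its cluster to respond to retinoic acid, had 10 spots on each array, and 0 of them were well above background on any. Hoxd9 was measured on 2 WT arrays and 0 TKO arrays, at -7.35, -6.42 and -6.55 on TKO arrays and -5.05, -4.45 and -4.84 on WT arrays. Hoxa11, a regulator of limb and uterus development, also had 10 spots per array. Between 1 and 2 of them were well above background on each TKO array, against 3, 8 and 6 on the WT arrays, and the spot means were -5.33, -5.23 and -5.18 on TKO arrays and -4.94, -4.79 and -4.59 on WT arrays. For Hoxa11 and Hoxd9 the TKO values were all under the WT values. Hoxa13 and Hoxd11 were each measured on 1 WT array and Hoxb3 on 1 array of each group, and the values of these 3 genes overlapped. Every Hox gene with a second probe had at most 1 probe that could be tested, so that no fall was seen by 2 probes of the same gene.

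Transcripts that are not Hox genes but lie in the clusters were compared next. The antisense transcript Hoxa11os, probed at 52199709 to 52199768 of chromosome 6, was at -3.07, -3.36 and -3.20 on TKO arrays and -2.59, -2.67 and -2.91 on WT arrays. It was lower by -0.49 ± 0.111 (SE, adjusted p = 0.0114, limma). HOTAIR, the noncoding RNA of the Hoxc cluster, differed by -0.12 ± 0.134 (SE, adjusted p = 0.49, limma) and lies between the probes of Hoxc12 and Hoxc11, which were both lower. Hoxb5os, antisense in Hoxb, differed by 0.37 ± 0.142 (SE, adjusted p = 0.0704, limma). Over the 7 tested transcripts inside the Hoxb span that are not Hox genes, 3 were lower and 1 higher, with a median of -0.18. Among them Gm53, a predicted transcript, was at -0.59 ± 0.073 (SE, adjusted p = 0.000997, limma).

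Within 500 kb outside each cluster the picture differed by chromosome. Outside Hoxa, all 4 tested genes were lower (median -0.68), among them Skap2, an adaptor protein of leukocytes, at -0.92 ± 0.043 and Hibadh, a mitochondrial enzyme of valine breakdown, at -0.55 ± 0.0489 (SE, adjusted p = 2.33e-05 and 0.000266, limma). Outside Hoxb, 23 of 31 were higher and 1 lower (median 0.91), 13 of them at least 2-fold. Ttll6, a tubulin polyglutamylase gene 31.1 kb from the cluster, rose by 2.26 ± 0.07, and Copz2, a coatomer subunit gene 494 kb away, by 2.16 ± 0.139 (SE, adjusted p = 6.64e-06 and 7.27e-05, limma). Skap1, the nearest called gene on the other side at 391.7 kb, rose by 1.11 ± 0.178, and B4galnt2, a glycosyltransferase gene, fell by 0.61 (adjusted p = 0.00281 and 0.00309, limma). Outside Hoxc, 15 of 31 were lower and 5 higher (median -0.20), from Nckap1l, a haematopoietic actin regulator, at -1.68 ± 0.0392 to Ppp1r1a, a phosphatase inhibitor, at 0.52 ± 0.0793 (SE, adjusted p = 3.21e-06 and 0.00231, limma). Outside Hoxd, 1 of 3 was called, Mtx2, a mitochondrial import gene, at -0.15 ± 0.0487 (SE, adjusted p = 0.0403, limma). Evx2, the homeobox gene 15.6 kb beyond Hoxd13, differed by 0.14 ± 0.0947 (SE, adjusted p = 0.253, limma).

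**Figure D4:**
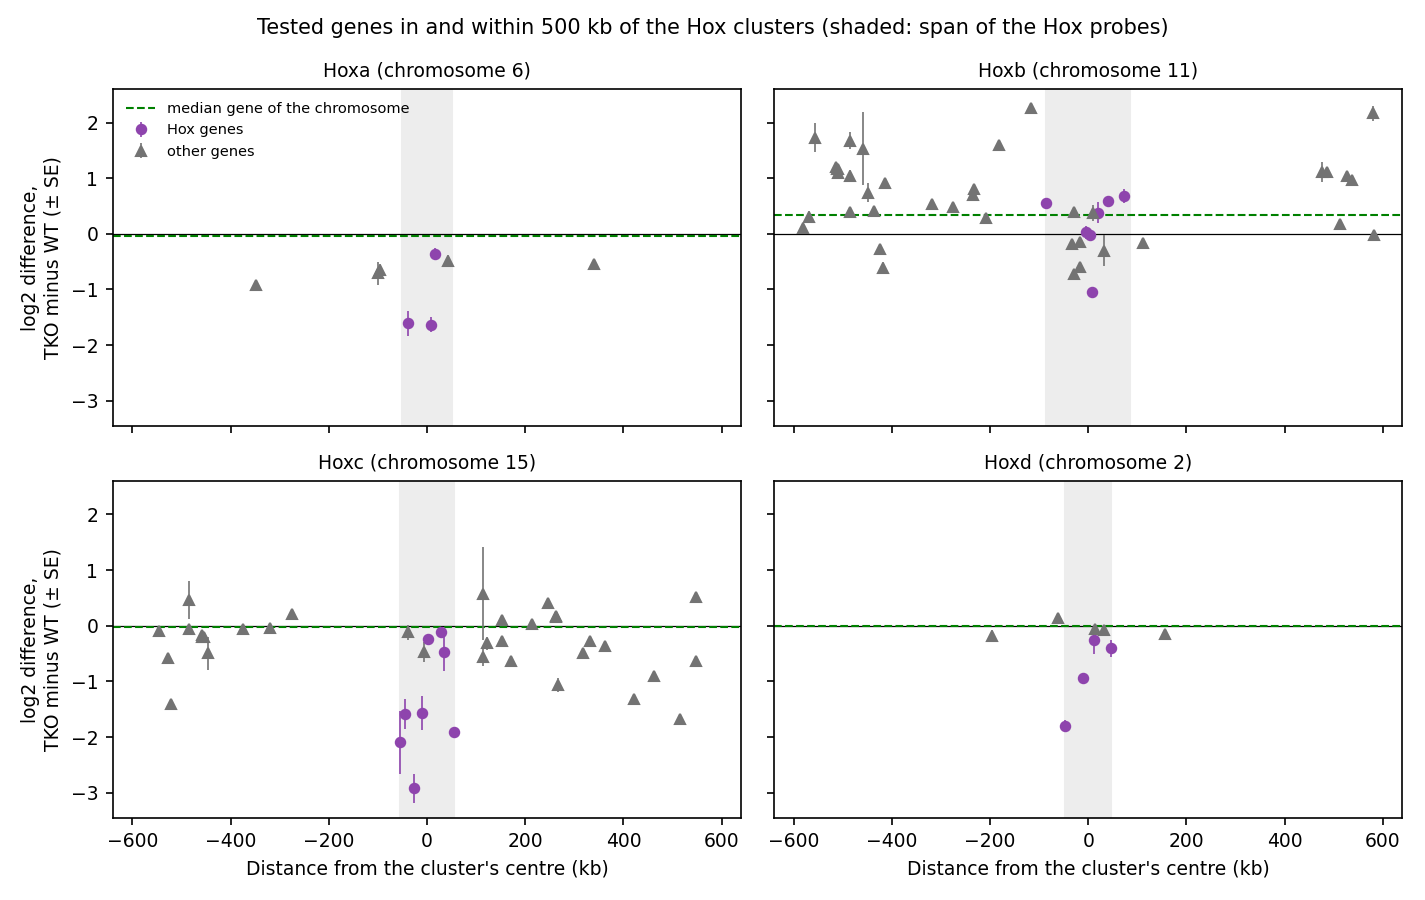
Differences (TKO minus WT, log2, ± SE) of the tested Hox genes reported here (purple circles) and 81 other tested gene names (grey triangles), some of which share a locus, by distance in kb from the centre of each cluster, with the span of the Hox probes shaded and a dashed line at the median gene of the chromosome. Outside Hoxb most triangles lie above 0 and above the Hox genes of that cluster. In Hoxc and Hoxd the Hox genes lie among or below their neighbours.

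Regulators of Hox genes were described from lists, by counts, and no list was tested as a set. The counts of this and the next lists stand beside 29.7% lower and 30.0% higher over all tested genes. Of 34 tested Polycomb genes 17 were higher and 10 lower, with a median of 0.14. Ezh1 (1.46 ± 0.0651), a catalytic subunit, Suz12 (1.04 ± 0.0457), a core subunit, and Phc1 (0.93 ± 0.0531), a polyhomeotic gene, rose, and Ezh1 and Suz12 lie on chromosome 11. Bmi1 (-1.06 ± 0.0668) and Scml2 (-0.83 ± 0.0543) were lower, as was Cbx8 (-0.66 ± 0.199), a chromodomain subunit (SE; adjusted p from 1.94e-05 to 0.0327 over these 6 genes, limma). Of 15 Trithorax and H3K27 demethylase genes 7 were higher and 1 lower (median 0.21). The methyltransferase genes Setd1b (0.72 ± 0.0738) and Kmt2c (0.48 ± 0.0611) and the demethylase gene Kdm6b (0.55 ± 0.0537) rose, and Wdr5 (-0.40 ± 0.0396), a shared scaffold, fell (SE; adjusted p from 0.000374 to 0.00106, limma).

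Of 22 genes of the Cdx and retinoic acid list 18 were tested, and 9 were higher and 4 lower (median 0.28). Cdx2, a caudal factor that activates posterior Hox genes, read -3.72, -3.38 and -3.44 on TKO arrays and was well above background on 0 WT arrays. It entered the test through the TKO arrays alone, which favours a higher call. It was at least 3.62-fold higher on the main scale (adjusted p = 0.00128 in the limma fit, no support beyond the bound) and 1.61-fold under normexp. The retinoic acid-binding protein gene Crabp2 rose by 1.93 ± 0.0399 (SE, adjusted p = 2.49e-06, limma). The retinol receptor gene Stra6, measured on 3 TKO arrays and 1 WT array, was called higher (adjusted p = 0.000867, limma). Its fitted difference of 3.18 ± 0.382 (SE) rests in part on 2 WT values not well above background, and it was 0.91 under normexp. Crabp1 was lower, by -0.84 ± 0.0558, as were Rxra (-0.82 ± 0.0462) and Dhrs3 (-0.50 ± 0.103), which encode a retinoid receptor partner and a retinal-reducing enzyme (SE, adjusted p = 8.32e-05, 4.69e-05 and 0.00773, limma).

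Of 9 TALE cofactor genes 3 were higher and 2 lower (median 0.03). Pknox2, Pbx4 and Pbx2 were at 1.84 ± 0.141, 0.72 ± 0.0428 and 0.46 ± 0.0337, and Meis2 and Pbx3 at -0.35 ± 0.073 and -0.18 ± 0.0312 (SE; adjusted p from 5.61e-05 to 0.00824, limma). Of 13 ParaHox and other Hox-like homeobox genes 8 were tested, with 3 higher and 2 lower (median 0.04). The 2 lower genes were Gbx2, a midbrain and hindbrain factor, at -2.28 ± 0.0698 (SE, adjusted p = 6.5e-06, limma), and the ParaHox gene Gsx2, which was well above background on 3 WT arrays and 0 TKO arrays and so entered through the WT arrays alone.

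Markers of cell types that the dishes could hold were called as well, where 29.7% of all tested genes were lower and 30.0% higher. Their part in the Hox differences was not tested. In bulk RNA, fewer cells of a type and less RNA per cell cannot be told apart. The ES cell label was borne out by all 10 ES cell markers being well above background on every array. Of these, 6 were lower and 1 higher (median -0.33), with Zfp42 at -4.07 ± 0.0491 and Fgf4 at 0.46 ± 0.0477 (SE, adjusted p = 1.09e-06 and 0.000463, limma). Of 20 fibroblast markers, which stand for feeder cells and for cells that themselves express many Hox genes, 19 were tested, and 11 were higher and 2 lower (median 0.35). Their summed signal, in units of the 75th percentile, was 165 to 177 on TKO arrays and 169 to 172 on WT arrays, and none of the tested markers was below background on all arrays of a group. The sum mostly follows its brightest marker, Fn1, which was 1 of the 2 lower genes (log2 means 6.74 in TKO and 6.97 in WT). It therefore does not show that the other markers were level between the groups. Lum was the fibroblast marker not tested. Of 8 tested neuroectoderm markers 4 were higher and 3 lower, of 7 tested mesoderm markers 2 and 2, and of 10 primitive endoderm markers 4 and 4. Summed signals of these lists were 5.29 to 5.61, 7.47 to 8.55 and 29.8 to 32.1 on TKO arrays, against 4.37 to 4.63, 8.56 to 9.17 and 39.8 to 41.5 on WT arrays.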

How the data were processed

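Per the file headers, the deposited scanner files give for each spot a background-subtracted and detrended intensity, not normalized between arrays, made with Agilent Feature Extraction (version 11.5.1.1 in the submitters' processing notes). The spot flags (well above background, positive and significant, saturated, outlier) are 0 or 1 in the deposited files. A further table of values deposited by the authors appeared to hold log2 signals shifted by a constant per array when set against the scanner intensities. Its scale and centring are not stated in the sources used here, but the 75th percentile of every column was 0, as on the main scale. As an alternative it therefore holds nearly the same values. Column medians were -3.9, -3.74 and -3.82 for TKO arrays and -3.97, -3.97 and -4.03 for WT arrays.

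Control and outlier spots were left out, spots of 1 probe were averaged, and log2 intensities were set relative to each array's 75th percentile (367 to 413 intensity units). A probe counted as well above background on an array if at least 50% of its spots were. Probes passing on at least 3 arrays were kept (30734), and the brightest stood for its gene name. Gene names and mm9 positions are those of the array files. TKO and WT were compared with limma 3.58.1 in R 4.3.3 (two-sided, Benjamini-Hochberg over all tested genes), which was tested on simulated data; no block was used, because same-numbered dishes did not deviate together (r of -0.07, -0.02 and 0.01 across genes). With 3 arrays per group, the number of arrays sets the precision. No exon annotation of the probes was used. Members, lists and tests were chosen with earlier results of these data known. Named were every tested Hox gene, Tet1 to Tet3, called neighbours nearest to or most changed beside a cluster, and up to 3 called genes per direction of 10 lists (ES cell, fibroblast, neuroectoderm, mesoderm, primitive endoderm, TALE, Polycomb, Trithorax, Cdx and retinoic acid, ParaHox). A few genes picked by this rule are not reported here. Alternatives changed the background correction, scaling, probe filter, array row, chromosome shift, source table, weights and replicates.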

Additional observations from a re-analysis of the deposited data

Results flagged for a closer look

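Hoxb5, a gene outside the tested set, was singled out because its probe (chromosome 11, 96167130 to 96167189) was well above background on 1 TKO array and on 0 WT arrays. It read -2.96, -5.91 and -4.47 on TKO arrays and -6.23, -5.31 and -7.27 on WT arrays. TKO replicate 1 alone carried the signal, the values of the groups overlapped, and no test was made.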

How the results depend on the processing

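The count of Hox genes called lower was 12 as reported and 10 to 16 under 19 of 20 alternatives; it was 6 where only genes well above background on all 6 arrays were tested, since fewer genes enter. That filter also gave 5 genes lower at least 2-fold, 2 called genes in Hoxa, 3 in Hoxc and 0 in Hoxd. Under normexp 4 genes were lower at least 2-fold, and the cause was not tested. Hox genes called higher numbered 0 with each array's chromosome median subtracted and 1 with the median gene difference subtracted, by construction of these settings. Leaving out 1 array in turn gave 3 to 4 higher, 10 to 12 lower, 9 to 10 lower at least 2-fold, and 3 to 4, 4 to 5, 4 to 5 and 2 to 3 called genes in Hoxa, Hoxb, Hoxc and Hoxd. The replicate block, for numbers that do not pair the dishes, gave 3 higher and 13 lower Hox genes and 11619 called genes in all, against 12862 without it. Array row 1 alone and the row as a block both set TKO replicate 1 against the WT arrays, and so are not separate checks. Median centring moved the median gene by -0.21 and gave 3 higher and 15 lower. Probes positive and significant, a looser flag, numbered 35, 29 and 32 on TKO arrays and 38, 42 and 38 on WT arrays.

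Signs turned for 4 genes that were not called as reported, and the cause was not tested. Hoxb8 was at 0.0324 under normexp, 0.11 in row 1 alone and with the row as a block, and -0.0807 to 0.0984 with 1 array left out. Hoxb9 was at -0.0516 under normexp, -0.0716 after quantile normalization, -0.17 after median centring, -0.41 and -0.31 with the chromosome subtractions, and -0.0244 to 0.131 with 1 array left out. Hoxd4 was at 0.28 in row 1 alone and with the row as a block, and Hoxb6 at -0.0564 with the chromosome median subtracted. Dim probes limit Hoxc10 to Hoxc12 to bounds, and the 16 untested genes to detection.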
